A study of Mus musculus with 3 samples.

Results

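The ETS transcription factors of endothelium described here are 10 genes of the adult lung endothelial cell (EC) transcriptome, *Erg*, *Fli1*, *Ets1*, *Ets2*, *Elk3*, *Etv2*, *Etv6*, *Elf1*, *Elf2* and *Elf4*. They were chosen by name as ETS genes associated with ECs, and all 10 have a row among the 24346 genes of the deposited table. The ECs came from the lungs of wild type male C57BL/6J mice aged 6 to 8 weeks and were not cultured. Anti-VE-cadherin antibody was injected before the lungs were digested, and CD31-positive cells without CD45 and podoplanin were sorted by FACS. The 3 libraries, S38, S44 and S52, form 1 group, so no condition was compared, and the sources used here do not say whether each is 1 mouse or a pool. Values are FPKM, fragments scaled to gene length and library size, which allows levels of different genes to be set side by side within a library.

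ETS factors share a winged helix DNA-binding domain, the ETS domain, that reads a GGAA core. In blood vessels they act at the promoters and enhancers of many EC genes. Etv2 starts the endothelial and blood programme in the embryo and is normally switched off afterwards. Erg and Fli1 form a close subfamily that maintains EC identity, and Ets1 and Ets2 are a close pair regulated by MAP kinase phosphorylation. Elk3 belongs to the ternary complex factors, partners of serum response factor (SRF), and can repress transcription. Etv6 is a repressor, and Elf1, Elf2 and Elf4 form the Elf subfamily used in ECs and blood cells.

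The bases before the start sites of the members that were listed at 0 (*Etv2*) or, for *Erg* and *Etv6*, ranged over 1.5-fold between libraries are printed to show where a GGAA core stands. RefSeq windows on GRCm38.p6, the mm10 assembly, were found for 8 members, 13 windows in all, and *Ets1* and *Fli1* have no entry. *Elf2* also ranged over 1.5-fold, but both of its windows overlap annotated exons and are not printed. The 250 bases before each start site are considered, and the capitals mark GGAA on either strand (TTCC on the printed strand). Sequences run 5′ to 3′ along the gene.
*Etv2*, minus strand, chr7:30635853-30636102: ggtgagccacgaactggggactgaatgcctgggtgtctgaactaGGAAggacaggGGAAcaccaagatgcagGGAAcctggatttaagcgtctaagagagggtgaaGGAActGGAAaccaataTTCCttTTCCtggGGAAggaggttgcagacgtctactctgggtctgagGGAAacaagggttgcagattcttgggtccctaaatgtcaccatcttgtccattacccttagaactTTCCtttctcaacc
*Erg*, minus strand, internal start site, chr16:95530366-95530615: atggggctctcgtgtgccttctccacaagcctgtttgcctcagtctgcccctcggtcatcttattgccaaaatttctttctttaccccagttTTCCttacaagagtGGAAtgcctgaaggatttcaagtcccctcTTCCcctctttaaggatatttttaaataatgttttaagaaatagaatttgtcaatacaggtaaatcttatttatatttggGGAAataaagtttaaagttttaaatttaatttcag
*Etv6*, plus strand, chr6:134035450-134035699: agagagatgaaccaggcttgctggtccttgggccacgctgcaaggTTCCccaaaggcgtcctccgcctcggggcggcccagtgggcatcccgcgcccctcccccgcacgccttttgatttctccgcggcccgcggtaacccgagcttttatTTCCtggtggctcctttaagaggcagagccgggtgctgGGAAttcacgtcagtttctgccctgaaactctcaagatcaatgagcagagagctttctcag
*Etv2* had 10 GGAA cores in this window, *Erg* 4 before the internal start site shown and *Etv6* 3. GGAA is short, and 93.4% of all 32851 promoter windows hold at least 1. At least 10 stand in 0.192% of them, whereas 33.4% hold at least 4 and 54.7% at least 3. Of the other *Erg* windows, that before the most upstream start site, at chr16:95586594-95586843, held none, and that at chr16:95459349-95459598 held 2. The window shown has the most. The longer form CGGAAG, found on either strand in 13.6% of all windows, occurred in 1 of the 13 member windows, at an internal start site of *Elf2*, which also held CAGGAAGT, found in 2.69% of all windows. All these forms contain GGAA. The form CCGGAAGT, which contains CGGAAG, occurred in none of the member windows and in 2.88% of all windows. These matches are descriptions of sequence only.

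Most of the 10 genes were well expressed in adult lung ECs. A mean of at least 1 FPKM, called detected here, was reached by 9 of the 10, against 48.3% of all genes in the table. The same 9 were at 1 FPKM or above in each library, against 43.9% of all genes. A mean of 10 FPKM was reached by 8, against 25.7% of all genes. The exception at 1 FPKM was *Etv2*, and at 10 FPKM *Elf4* as well. The members were not chosen at random, so these shares describe them and are no test. The median over the 10 members was 35.4 FPKM, against 0.784 FPKM over all genes.

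*Ets2* and *Ets1*, the MAP kinase-responsive pair, were the highest members. *Ets2* (chromosome 16, 95702075 to 95721051, plus strand) was at 127 (S38), 144 (S44) and 129 FPKM (S52), a mean of 133 ± 9.23 FPKM (SD, n = 3 libraries). Its mean lay above that of 97.2% of all genes. *Ets1* (chromosome 9, 32636221 to 32757820, plus strand) was at 104, 100.0 and 127 FPKM in the same order, a mean of 110 ± 14.6 FPKM (SD, n = 3). *Ets2* was the higher gene in every library, but in S52 the log2 ratio of *Ets2* to *Ets1* was 0.02, against 0.30 in S38 and 0.53 in S44.

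*Elk3* (chromosome 10, 93247414 to 93311135, minus strand), the SRF partner, was the third highest member. It was at 74.5 (S38), 84.5 (S44) and 87.4 FPKM (S52), a mean of 82.1 ± 6.77 FPKM (SD, n = 3). Its exons share 316 bp with *Cdk17* on the other strand, and 6.49% of the 51 bp windows of its longest transcript also occur in *Cdk17*, so with unstranded reads a part of its value is uncertain. *Cdk17* was at 42.7, 41.2 and 41.3 FPKM.

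*Erg* and *Fli1*, the pair that maintains EC identity, stood at different levels. *Erg* (chromosome 16, 95359169 to 95586593, minus strand) was at 59.2 (S38), 43.1 (S44) and 84.8 FPKM (S52), a mean of 62.4 ± 21.04 FPKM (SD, n = 3). S52 was the highest library for *Erg* and S44 the lowest, a 1.97-fold range, the widest among the detected members. *Fli1* (chromosome 9, 32422204 to 32542861, minus strand) was at 20.3, 21.5 and 23.5 FPKM, a mean of 21.8 ± 1.61 FPKM (SD, n = 3). The lowest *Erg* value exceeded the highest *Fli1* value, and the mean log2 ratio of *Erg* to *Fli1* within libraries was 1.47 ± 0.43 (SD, n = 3). No 51 bp window of the longest transcript of either gene occurs in a transcript of another member.

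Of the Elf genes *Elf1* was the highest and *Elf4* the lowest in every library. *Elf1* (chromosome 14, 79481194 to 79582494, plus strand) was at 39.2 (S38), 38.9 (S44) and 43.1 FPKM (S52), a mean of 40.4 ± 2.34 FPKM (SD, n = 3), the narrowest relative spread of the detected members. *Elf1* also shares 327 exonic bp with *Wbp4* on the other strand, and 9.25% of its 51 bp windows occur in other genes. *Elf2* (chromosome 3, 51252720 to 51340663, minus strand) was at 24.4, 26.3 and 40.7 FPKM, a mean of 30.5 ± 8.94 FPKM (SD, n = 3), with S52 standing above S38 and S44 and also above the *Elf1* values of S38 and S44. *Elf4* (chromosome X, 48411046 to 48463132, minus strand) was the lowest detected member, at 5.23, 4.71 and 4.07 FPKM, a mean of 4.67 ± 0.580 FPKM (SD, n = 3).

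The ETS repressor *Etv6* (chromosome 6, 134035700 to 134270158, plus strand) was at 11.9 (S38), 10.2 (S44) and 16.4 FPKM (S52), a mean of 12.8 ± 3.22 FPKM (SD, n = 3). As for *Erg* and *Elf2*, S52 was its highest library. The exons of *Etv6* share 135 bp with *Gm17089* on the other strand, and 1.56% of its 51 bp windows occur there. The mean of *Ets1* lay above that of 96.7% of all genes, that of *Elk3* above 95.7% and that of *Erg* above 94.3%. For *Elf1*, *Elf2* and *Fli1* this was 91.2%, 88.5% and 84.9%, and for *Etv6* and *Elf4* 77.7% and 64.5%.

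*Etv2* (chromosome 7, 30633616 to 30635852, minus strand), the embryonic initiator, was listed at 0 in all 3 libraries, as were 29.5% of all genes. The table holds no read counts and a listed 0 can also be a failed estimate, so no upper limit is given.

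**Figure D1:**
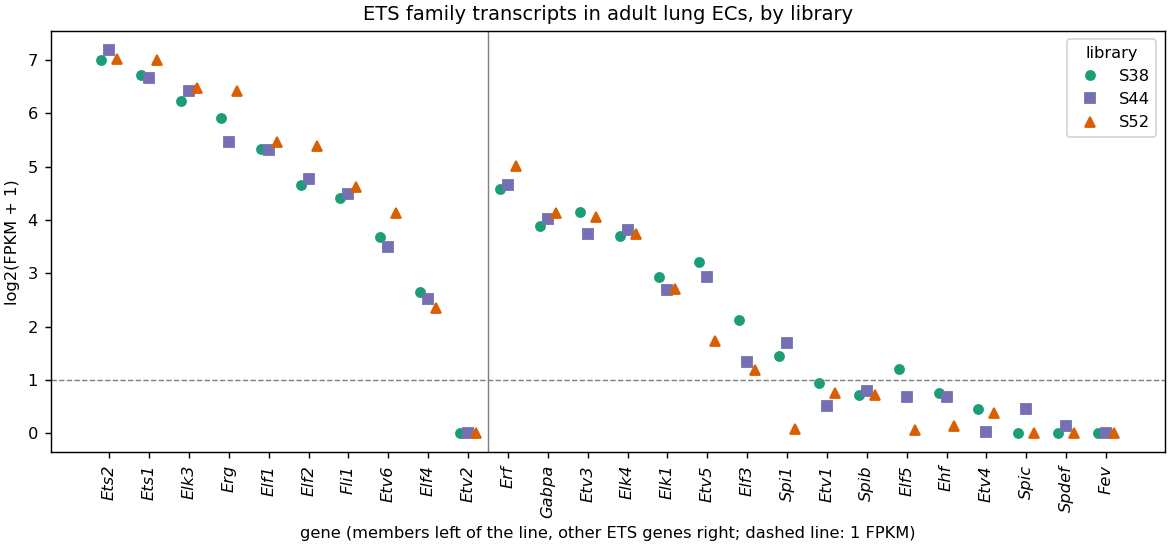
Level of each ETS gene as log2(FPKM + 1), 1 point per library (circle S38, square S44, triangle S52), for the 10 members left of the vertical line and 16 other ETS genes right of it. From *Ets2* at 133 FPKM to *Elf4* at 4.67 FPKM, 9 members lie above the dashed line at 1 FPKM, and *Etv2* lies at 0.

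The 9 detected members kept the same order in every library: *Ets2*, *Ets1*, *Elk3*, *Erg*, *Elf1*, *Elf2*, *Fli1*, *Etv6* and *Elf4*. Neighbours were called apart when the higher gene was higher in all 3 libraries and the mean log2 ratio exceeded its SD. This held for 7 of the 8 neighbouring pairs and for 35 of all 36 pairs. The exception was *Elk3* and *Erg*, whose log2 ratio of 0.45 ± 0.47 (SD, n = 3) did not exceed its spread. In S52 the difference of that pair was 0.04, against 0.97 in S44. The steps from *Ets2* to *Ets1*, at 0.28 ± 0.25, from *Erg* to *Elf1*, at 0.57 ± 0.41, and from *Elf1* to *Elf2*, at 0.44 ± 0.32 (log2, SD, n = 3 for each), were only a little larger than their spread. The widest step was that from *Etv6* to *Elf4*, at 1.44 ± 0.50 (log2, SD, n = 3). By the same rule 4 of the 8 neighbouring pairs were apart without S38, 5 without S44 and 8 without S52. A sign-flip permutation test over 3 libraries cannot go below a two-sided p of 0.25, so no test of the order was made. The order within a library does not depend on how the columns are scaled.

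**Figure D2:**
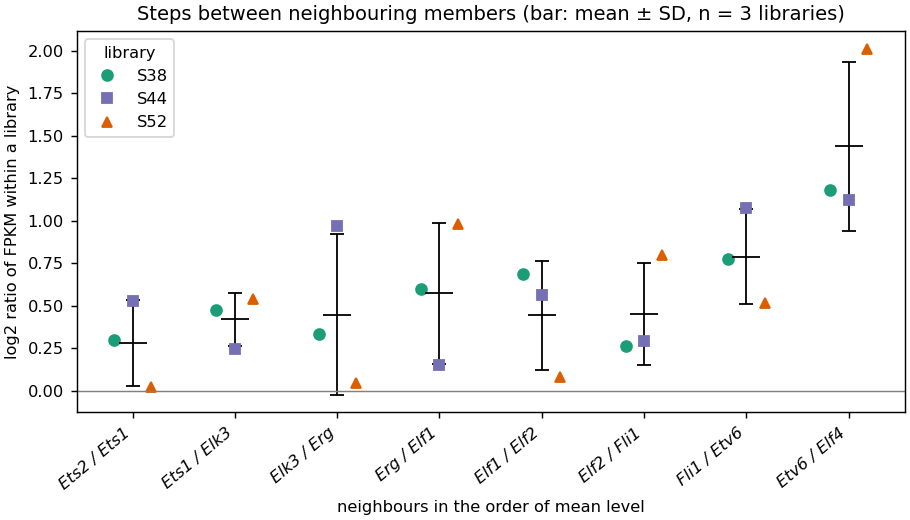
Log2 ratio of FPKM of each member to the next lower one within a library (points) with the mean ± SD over the 3 libraries (bars). All points lie above 0, and for *Elk3* over *Erg*, at 0.45 ± 0.47, the SD bar reaches below 0.

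The 10 members summed to 466 (S38), 473 (S44) and 556 FPKM (S52). *Ets2* alone made up 27.0% ± 3.65 of that sum (SD, n = 3) and *Ets1* 22.1% ± 0.874. *Elk3* contributed 16.5% ± 1.15 and *Erg* 12.4% ± 3.09 (SD, n = 3 for each). These 4 highest genes together held 77.9% ± 0.827 of the member sum (SD, n = 3). The share of *Fli1* was 4.38% ± 0.162 (SD, n = 3). Of the sum over 26 ETS genes in the table, the members held 83.9%, 85.0% and 86.5% in the same order.

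**Figure D3:**
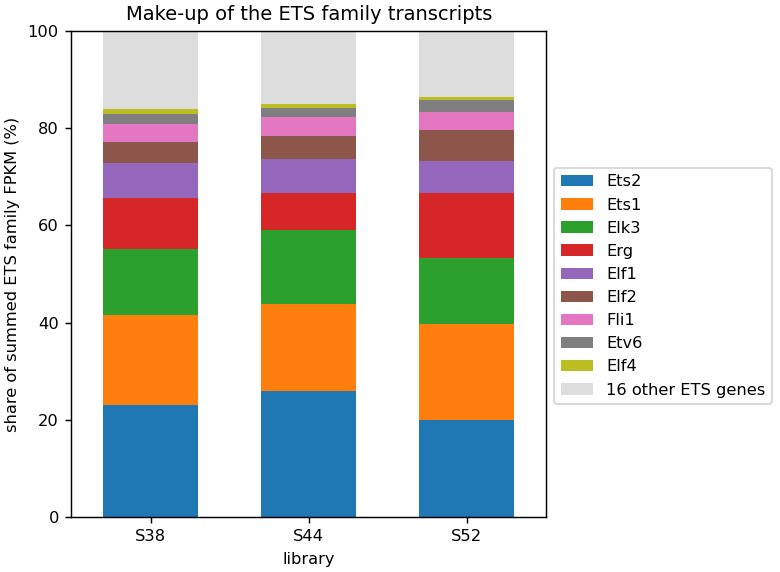
Share of the summed FPKM of 26 ETS genes in each library (stacked bars, in percent), with the detected members in colour and the 16 other ETS genes in light grey at the top. The 4 highest members take 65.7% in S38, 66.8% in S44 and 66.6% in S52.

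Of the 16 other ETS genes with a row, 8 had a mean of at least 1 FPKM, a share near the 48.3% of all genes. The median over all 16 was 1.01 FPKM, against 0.784 FPKM over all genes. *Erf*, a repressor inactivated by MAP kinase, was the highest at 22.8 (S38), 24.2 (S44) and 31.4 FPKM (S52). *Gabpa*, the DNA-binding subunit of GA-binding protein, was at 13.8, 15.3 and 16.6 FPKM, *Etv3* at 16.7, 12.2 and 15.7 FPKM, and the ternary complex factors *Elk4* and *Elk1* at 12.5 ± 0.527 and 5.87 ± 0.695 FPKM (SD, n = 3). *Erf* was the only one of the 16 above *Fli1* in every library. *Elk1* and *Elk4* were each lower than *Elk3* in every library.

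Apart from *Etv5*, the ETS genes of epithelium and leukocytes among the 16 other ETS genes were below the member *Elf4* in every library. *Etv5* exceeded *Elf4* in S38 and S44. Of the 16 other ETS genes 6 were lowest in S52, namely *Etv5*, *Elf3*, *Spi1*, *Elf5*, *Ehf* and *Spib*. *Spdef* and *Spic*, listed at 0 in both S38 and S52, are not counted. The share lowest in S52 was 46.3% among all genes at 1 FPKM or above, so 6 of 16 is not above it. That share leaves out genes such as *Elf5*, *Ehf* and *Spib*, which averaged below 1 FPKM. *Etv5*, which alveolar type 2 cells use, was at 8.26 (S38), 6.59 (S44) and 2.32 FPKM (S52). The epithelial genes *Elf3*, at 3.34, 1.54 and 1.29 FPKM, *Elf5*, at 1.30, 0.600 and 0.0448 FPKM, and *Ehf*, at 0.691, 0.598 and 0.104 FPKM, followed the same order. *Spi1*, which encodes the myeloid factor PU.1, was at 1.74, 2.25 and 0.0500 FPKM. *Spib* differed little between libraries, at 0.651, 0.740 and 0.637 FPKM. The members *Erg* and *Elf2* were instead highest in S52. *Etv1*, *Etv4*, *Spib*, *Spic* and *Spdef* had means below 1 FPKM, and *Fev* was listed at 0 in every library. The markers of alveolar type 2 cells, airway and leukocytes on the lists used here were also lowest in S52, and their part in the levels of these ETS genes was not tested.

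The listed targets of ETS factors in ECs were all detected, most of them at high levels. The list holds 17 endothelial genes with ETS sites in their regulatory regions. All 17 were at 1 FPKM or above in every library, against 43.9% of all genes. Their median was 333 FPKM, against 35.4 FPKM for the 10 members. The highest was *Cldn5*, a tight junction gene, at 1486 (S38), 1732 (S44) and 1029 FPKM (S52), and the lowest *Nos3*, the endothelial nitric oxide synthase gene, at 19.2, 19.1 and 21.2 FPKM. *Cdh5*, which encodes VE-cadherin and is bound by Erg, was at 921 ± 51.5 FPKM (SD, n = 3). Many of these genes define ECs, the cells that were sorted, so their detection is no test of ETS activity. *Pecam1*, which encodes CD31, the antigen used in the sort, was at 1125, 1216 and 1164 FPKM. Among 14 genes that act with or on ETS proteins, 12 had a mean of at least 1 FPKM, against 48.3% of all genes. *Mapk3*, the ERK1 kinase gene, was the highest at 338, 354 and 421 FPKM. The forkhead gene *Foxc2*, whose protein acts with Etv2 on shared sites in the embryo, was the lowest, at 0.0410, 0 and 0.607 FPKM. The ubiquitin ligase gene *Cop1* was found under its older symbol *Rfwd2*, at 13.8, 11.2 and 14.4 FPKM. For the ternary complex factors, *Srf* was at 28.0, 29.9 and 37.6 FPKM. On the SRF target list 9 of 9 genes had a mean of at least 1 FPKM, against the same 48.3%. In that list *Fos* was the highest, at 476, 455 and 516 FPKM, and *Egr3* the lowest, at 5.27, 5.49 and 3.50 FPKM. *Fos* and *Egr3* are immediate early genes, which also rise when tissue is dissociated, and no undissociated sample was measured here.

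The libraries differed in genes of other cells. The 8 platelet genes summed to 1855 (S38), 1487 (S44) and 49.0 FPKM (S52), and all 8 were lowest in S52, against 46.3% of all genes. The 8 leukocyte genes were also all lowest in S52, with *Cd3e* and *Nkg7* listed at 0 there. They summed to 1082, 821 and 186 FPKM, but *Lyz2* alone was at 1047, 780 and 166 FPKM. The sums therefore say little about the other leukocyte genes. The next highest, *Cd68*, was at 17.0, 27.4 and 16.7 FPKM, and the medians of the list were 3.57, 2.31 and 0.475 FPKM. The 5 alveolar type 2 genes summed to 3756, 3156 and 760 FPKM and the 5 airway genes to 2777, 2309 and 403 FPKM. Their highest genes, *Sftpc* at 3333, 2862 and 658 FPKM and *Scgb1a1* at 2669, 2213 and 378 FPKM, exceeded *Pecam1* in S38 and S44. The 5 mural genes, at a sum of 115, 60.2 and 111 FPKM, showed no such drop in S52. Most of that sum was *Acta2*, at 90.3, 46.7 and 79.7 FPKM. The 4 fibroblast genes summed to 73.1, 56.0 and 41.9 FPKM, of which *Dcn* was at 47.4, 35.5 and 19.8 FPKM. Of these 4 genes 2 were lowest in S52 and 1, *Pdgfra*, was highest there. Of the 4 lymphatic genes *Prox1* was at 0.132, 0.173 and 0.598 FPKM, *Pdpn*, which encodes podoplanin, at 2.39, 1.84 and 3.09 FPKM and *Flt4* at 23.7, 23.8 and 19.8 FPKM. The fourth, *Lyve1*, was at 539, 597 and 390 FPKM. In bulk RNA, fewer cells of a type and less RNA per cell cannot be told apart.

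The range between libraries was under 2-fold for each detected member as deposited. No member (0 of 9 detected) had a ratio of highest to lowest library above 2, whereas 20.1% of all genes averaging 1 FPKM or more did. *Erg* lay just under it, at 1.97-fold, and passed it with median ratio scaling or after rescaling each library to a sum of 1000000. Over 1.5-fold lay 3 members, *Erg*, *Elf2* at 1.67-fold and *Etv6* at 1.61-fold, against 41.7% of all genes. The median range was 1.27-fold for the 9 members and 1.40-fold for all genes at 1 FPKM or above. At a mean of 10 FPKM or above, where 8 of the members lie, 8.74% of all genes passed 2-fold and 27.2% passed 1.5-fold. The estimated fragments behind a detected member ran from 820 for *Elf4* in S52 to 21219 for *Ets1* in S52, with counting errors of 3.49% and 0.686%. For *Erg* the counting error was at most 1.39%, which covers neither library preparation nor the division of fragments among transcripts. *Erg* and *Elf2* have 8 and 7 annotated basic transcripts, the most among the members, and FPKM of such genes rests on how fragments were divided among transcripts. *Fli1* and *Ets2*, with 1 transcript each, had ranges of 1.16-fold and 1.13-fold, but *Etv6*, with 2, had 1.61-fold, and *Elf1* and *Elk3*, with 3 each, 1.11-fold and 1.17-fold. *Ets1*, with 4, had 1.27-fold and *Elf4*, with 2, 1.28-fold. The part of transcript number in these ranges was not tested.

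As deposited, S52 was the highest library for 7 of the 9 detected members, against 33.9% of all genes at 1 FPKM or above, but after rescaling to a sum of 1000000 this was 3 of 9, *Elf2*, *Erg* and *Etv6*, against 20.5%. The 7 were *Erg*, *Fli1*, *Ets1*, *Elk3*, *Etv6*, *Elf1* and *Elf2*. With median ratio scaling S52 was the highest for 7 of 9 again, against 38.6% of all genes, and with scaling to the sum of protein-coding genes for the same 7, against 33.5%. The 2 exceptions as deposited were *Ets2*, highest in S44, and *Elf4*, highest in S38 and lowest in S52. The difference of log2(FPKM + 1) between S52 and the mean of S38 and S44 was 0.74 for *Erg*, 0.66 for *Elf2* and 0.54 for *Etv6*. It was 0.32 for *Ets1*, and for the other detected members it lay between -0.23 for *Elf4* and 0.16 for *Fli1*. The median over the 9 detected members was 0.16, that over all genes at 1 FPKM or above -0.07, and that over the 17 ETS-bound endothelial genes -0.03, or 0.03 with median ratio scaling. It was 0.27 for the ETS partners and regulators, 0.15 for the SRF targets and 0.14 for a list of 9 dissociation stress genes. Without S38 the last 2 were -0.08 and -0.12. The SRF target and stress lists share *Fos*, *Fosb*, *Egr1* and *Junb*, so their medians are not separate results. The platelet genes had a median of -3.88 and the leukocyte genes -0.89. *Erg* and *Fli1*, which megakaryocytes also use, were highest in the library with the least platelet transcript, as deposited and, for *Erg*, under every scaling, whereas *Fli1* was highest in S38 after rescaling to a sum of 1000000. The mural genes, with a median of 0.66, were higher in S52 than the mean of S38 and S44 for 5 of 5, as were 43.3% of all genes, and 3 of the 5 were highest in S52. The part of these cells in the values of the members was not tested.

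**Figure D4:**
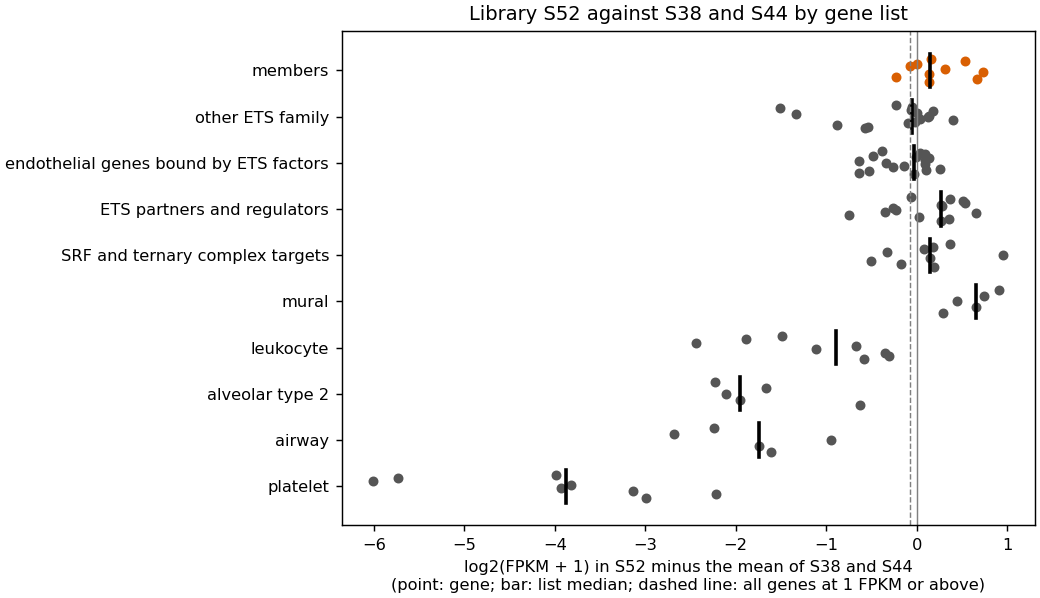
Difference of log2(FPKM + 1) between S52 and the mean of S38 and S44 for each gene (points) of 10 lists, with list medians (bars), no difference (solid line) and the median of all genes at 1 FPKM or above (dashed line, -0.07). The members, with a median of 0.15 over all 10, lie between -0.23 and 0.74, far from the platelet genes at a median of -3.88.

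Of the members, 4 lie in neighbouring pairs on the chromosomes. *Fli1* and *Ets1* lie 93.4 kb apart on chromosome 9, on opposite strands, and *Erg* and *Ets2* lie 115 kb apart on chromosome 16, also on opposite strands. No protein-coding gene is annotated between the genes of either pair. In both pairs the *Ets* gene was the higher one in every library, with mean log2 ratios of 2.33 ± 0.11 for *Ets1* to *Fli1* and 1.15 ± 0.57 for *Ets2* to *Erg* (SD, n = 3 for each). The ratio on chromosome 9 ran from 2.22 to 2.44, and that on chromosome 16 from 0.60 in S52 to 1.74 in S44.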

How the data were processed

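FPKM values of 3 adult lung EC libraries were read as deposited by the authors, with no rescaling in the main results. Per the labels, poly-A RNA was sequenced without strand information as paired reads of 51 bp. The submitters' processing notes name mm10 and the tools bcl2fastq 2.17, FastQC 0.11.5, Trimmomatic 0.36, TopHat2 2.1.0 and Cufflinks 2.2.1. The paper's methods describe STAR and HTSeq for count tables that were not used here, and the gene annotation behind the FPKM values is not given in the sources used here. FPKM depends on the annotated transcripts of a gene and on the library size used to scale it. The FPKM columns had unequal totals, 1153890 in S38, 1603600 in S44 and 1419350 in S52. Protein-coding genes made up 38.2%, 28.4% and 31.6% of these totals.

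Means and SDs were taken over the 3 libraries. They are separate samples in the labels, so the spread may be biological or technical. Detection meant an average of 1 FPKM or more. Differences used log2(FPKM + 1), a pseudocount of 1, which understates changes of low genes. No groups exist to compare, so no test was run and no count model was fitted. Depth is not part of the table and was estimated from the steps of low values of 7077 genes with 1 basic GENCODE M21 transcript of 800 to 4000 bp. At the best step, 78.4% of 324 low values in S38, 77.4% of 412 in S44 and 74.9% of 207 in S52 lay within 0.15 of a whole fragment, which gave 38000000, 38800000 and 33900000 fragments. The step was searched to fit these values and was checked on simulated data. The simulation drew whole fragments on 1 known transcript length per gene. It therefore checks the search and not how well these depths hold for the deposited values. Fragments per member assume its longest basic transcript, so they are approximate. Positions are those of GENCODE M21 on GRCm38 (mm10). Median ratio scaling divides each library by its median ratio to the geometric mean over genes that reach 1 FPKM in each library.

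The members and gene lists were chosen with earlier results of these data known. Named genes are all members, the other ETS genes, the highest and lowest gene of each list, the 5 genes nearest to the members in profile, and lineage markers beside which a member is set. *Srf*, *Cdk17*, *Wbp4* and *Rfwd2* were added after their values were seen. Of the list genes *Etv3l* was not found in the table. Analyses used Python 3.11.15 with pandas 2.3.3 and numpy 2.4.6.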

Additional observations from a re-analysis of the deposited data

How the results depend on the processing

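The order of the 9 detected members within a library is the same under any scaling of whole libraries. So is the count of 7 of 8 neighbouring pairs apart, because a library factor cancels in ratios within a library. The number of members detected was 9 at 0.1 FPKM, at 1 FPKM and at 1 FPKM in every library, and 8 at 10 FPKM. The scaling to protein-coding genes was chosen after seeing the data. With each library rescaled to sum to 1000000 the median level of the members went from 35.4 to 25.8 FPKM, that of the ETS-bound endothelial genes from 333 to 241 FPKM, the median log2 difference of S52 from 0.16 to 0.10 and the count of members over 2-fold from 0 to 1 (*Erg*), a count that median ratio scaling also raised to 1. Rescaling to protein-coding genes gave 79.0 for the members, 742 for the ETS-bound genes and 2.26 for the other ETS genes, by construction of a larger unit. With a fold of 1.5 the count over the fold was 3. Leaving out 1 library gave 4 to 8 neighbouring pairs apart (4 without S38), a median of 32.2 to 37.3 FPKM for the members, 0.853 to 1.47 FPKM for the other ETS genes, 322 to 370 FPKM for the ETS-bound genes and 25.3% to 28.9% for the share of *Ets2*. No paired analysis was possible because the 3 libraries form 1 group. Depth could only be estimated. Shares cannot change when whole libraries are scaled, and leaving out 1 of 3 libraries always moves the mean of a gene by less than its SD. Many values were thus bound to stay, and the counts that follow are no measure of stability. Of all alternative values computed, 273 stayed within the spread between libraries (for counts, within 1.5 times), 74 moved beyond it, and 7 log2 differences of S52 changed sign. With median ratio scaling these were the ETS-bound endothelial genes, at 0.0311, and the endothelial markers, at 0.0412. Most of the endothelial markers are also on the ETS-bound list, so their values are not separate results. The SRF target and dissociation stress lists share genes as well. Without S38 and without S44 the values were -0.118 and 0.0484 for the ETS-bound genes, -0.0845 and 0.0495 for the endothelial markers, -0.161 and 0.0136 for *Ets2*, -0.0802 and 0.325 for the SRF targets and -0.117 and 0.352 for the dissociation stress genes. The differences of S52 by gene and list were added to these comparisons after seeing the data.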

Other observations

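The genes whose levels over the 3 libraries were nearest to the median profile of the 9 detected members were *Plod2*, a collagen lysyl hydroxylase gene, *Gorasp2*, which encodes a Golgi stacking protein, *Arhgdia*, *Suclg2*, a mitochondrial enzyme gene, and *Ftl1*, which encodes ferritin light chain. Likeness was the largest difference over the 3 libraries of log2(FPKM + 1) centred on each gene's mean, among 6261 genes averaging 10 FPKM or more. *Plod2* differed by at most 0.012 and was at 9.94 (S38), 10.1 (S44) and 11.4 FPKM (S52). *Ftl1* differed by at most 0.016 and was at 1388, 1432 and 1603 FPKM. With 3 libraries of 1 group the measure separates genes poorly, and 886 genes, or 14.2%, lay within 0.1 of the profile.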
